A study of Mus musculus with 4 samples.

Results

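The comparison described here is the late step of a time course in RAW 264.7 cells: cells after 6 h with Lactobacillus bulgaricus against cells after 4 h. It rests on 2 of the 4 arrays of the study, chosen by their time label. RAW 264.7 is a mouse macrophage-like line of BALB/c origin, and L. bulgaricus is a lactic acid bacterium used to ferment milk. The 6 h group was RAW 264.7 cells kept with the bacteria for 6 h, and the 4 h group was the same line kept with them for 4 h, both at a multiplicity of infection of 10. The cells carried no transgene or deletion that the labels name. Each group had 1 two-colour array, hybridised with an equal mix of the RNA of 3 cultures. The cells' RNA carried Cy5. A common reference, a pool of RNA from treated and untreated cells, carried Cy3 on every array, with no dye swap.

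Macrophages sense bacteria through Toll-like receptors and related proteins, which act through NF-kB and MAP kinases to switch on immediate early genes, cytokines and chemokines. Many of these transcripts are short-lived and return towards their former level once feedback inhibitors and RNA decay factors act on them, while slower programmes of metabolism, stress and the cell cycle run on a later clock.

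All values are log2 of Cy5 over Cy3, and the difference is the 6 h value minus the 4 h value, so that a positive difference means higher at 6 h. A gene counted as measured when its probe stood well above background in both channels of both arrays. With 1 array per time nothing could be tested between replicates, so genes were called higher or lower by size alone, from a difference of 1 (2-fold) upwards. Probes spotted 10 times gave an SD of 0.098 for a difference, over 234 probes; this is the error of spots, and cultures may vary more. The share of spots well above background in Cy5 was 49.5% on the 6 h array and 51.0% on the 4 h array, and the mean signal over background was 34.8 at 6 h and 39.7 at 4 h. The arrays lay side by side on 1 slide, at position 4 for 6 h and position 3 for 4 h, and the effects of position and of time cannot be told apart. Because the material was bulk RNA, fewer cells of a type and less RNA per cell cannot be told apart.

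The shift was narrow. Of 10504 measured genes, 20 were higher at 6 h, which is 0.190% of those measured, and 15 were lower, which is 0.143%. The differences had a median of -0.02 and an SD of 0.23, and 96.6% lay within 0.5 of zero. Of all measured genes 46.4% lay above zero and 53.6% below, which is the background for the counts by sign given for lists. On the higher side stood secretory and mucosal genes, Ly6 and kallikrein genes, a linker histone and the stress genes Gadd45g and Bbc3. On the lower side stood Tnf, Tlr2, Fos, the host transcript of the miR-17 to miR-92a cluster, the methionine cycle enzyme gene Mat2a, and alpha-defensins. The values closest to the rule were 1.04 for Sult1a1 inside it and 0.97 for H2bc14 outside it on the higher side, and -1.01 for Nrros inside it and -0.99 for Exo5 outside it, with Mgat2 at -0.9954, on the lower side.

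**Figure D1:**
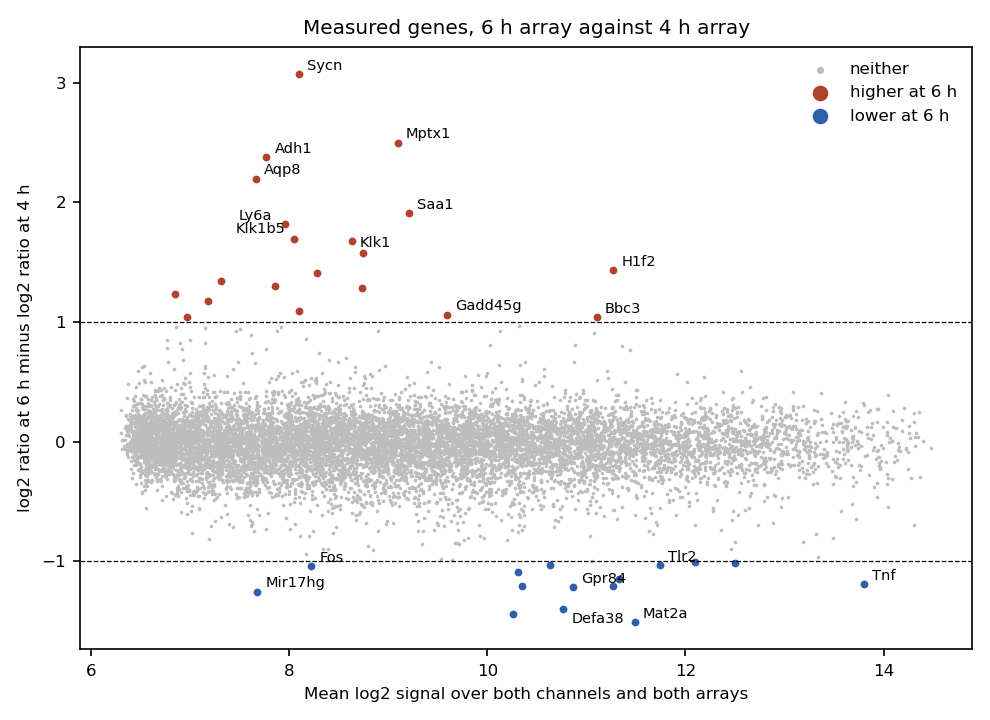
Difference of the log2 ratio (6 h minus 4 h, vertical axis) against the mean log2 signal over both channels and both arrays (horizontal axis) for the 10504 measured genes. Dashed lines mark differences of 1 and -1; the 20 genes higher at 6 h are in red, the 15 lower in blue, and the rest lie in a grey band around zero.

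Because the ratio could move through either channel, each channel was also compared alone. Of the 20 higher genes, 19 were also past the rule in Cy5, the cells' own channel, and 20 had the same sign there. Of the 15 lower genes, 14 kept their sign in Cy5 and 9 of these passed the rule there as well. The ratio contains Cy5, so these counts are no separate support; of all measured genes 1.12% were higher and 0.428% lower by the rule in Cy5 alone. The reference RNA was one pool, yet 1.16% of genes (122) were at least 1 apart in Cy3 between the arrays. That set held 1 higher and 1 lower gene of those called. The higher one was Lypd8, a secreted Ly6-domain protein of the colon, whose difference of 1.58 consisted of 0.09 in Cy5 and -1.49 in Cy3. The lower one was Defa21, an alpha-defensin, which was 2.53 higher at 6 h in Cy5 and 3.98 higher in Cy3, so that only its ratio was lower. Both calls therefore rest on the reference channel.

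**Figure D2:**
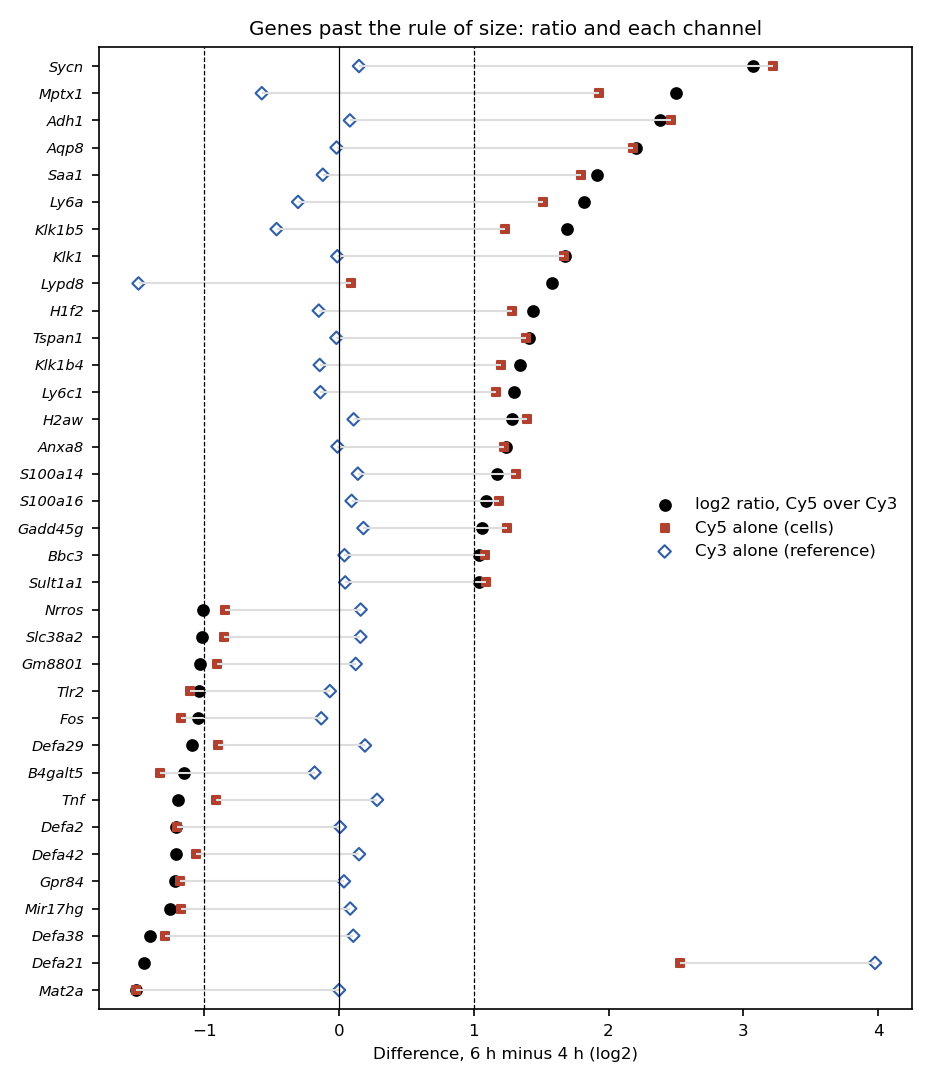
The 35 genes past the rule of size, ordered by their log2 ratio difference (6 h minus 4 h; black), with the difference in Cy5 alone (red squares) and in the Cy3 reference alone (open blue diamonds). The Cy3 points lie within 1 of zero except those of Lypd8 and Defa21.

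Among the genes that were lower at 6 h, those of the macrophage response to bacteria came from several layers. Tnf, the gene of tumour necrosis factor, had a processed Cy5 signal (the scanner's background-subtracted brightness, in arbitrary units) of 20460.2 at 6 h, against 36217 at 4 h, with 25872 at 6 h and 20222 at 4 h in the reference. Its log2 ratio was -0.33 at 6 h and 0.86 at 4 h, a difference of -1.19. In Cy5 alone the difference was -0.91, short of the rule. Of 14 measured cytokine and growth factor genes Tnf was the 1 past the rule. The other values were smaller: 10 of the 14 lay below zero, with a median of -0.11, while Csf3, the granulocyte colony-stimulating factor gene, had 0.57.

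The receptor gene Tlr2, whose protein binds bacterial lipoproteins as a partner of Tlr1 or Tlr6, had a processed Cy5 signal of 3604 at 6 h and 7678 at 4 h, while the reference had 6315 at 6 h and 6251 at 4 h. Its difference was -1.04 in the ratio and -1.10 in Cy5 alone. Tlr2 was the 1 gene past the rule among 27 measured pattern recognition receptors and adaptors, whose median was -0.09. The Toll-like receptors stood lower than that list as a whole: all 7 that were measured had a difference below zero, from -0.23 (Tlr9) to -1.04 (Tlr2), with a median of -0.50, and all 7 were below zero in Cy5 alone and in each of the other settings that gave them a value. They were grouped by symbol after their values were seen. Among them Tlr7, a sensor of single-stranded RNA, had -0.67, Tlr13, a sensor of bacterial ribosomal RNA, had -0.60, and Tlr4, the lipopolysaccharide receptor, had -0.50, with -0.27 in Cy5 alone. Ly96, the gene of the Tlr4 co-receptor MD-2, had -0.71. In the same list Clec4e, the Mincle lectin gene, had 0.34 (0.01 in Cy5 alone) and Irak2 and Irak3, genes of kinases of the receptor complex, had 0.21 and 0.19 (these 3 were named after their values were seen).

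Gpr84, a receptor for medium-chain fatty acids on myeloid cells, had a processed Cy5 signal of 1838 at 6 h, against 4229.9 at 4 h, and a difference of -1.22. Nrros, a membrane protein of myeloid cells that restrains reactive oxygen species, had -1.01, and -0.85 in Cy5 alone. Of 15 measured macrophage markers 0 were past the rule. Their differences ran from -0.39 for Laptm5 to 0.26 for Lgals3, with a median of -0.07. Their processed Cy5 signals summed to 108642 at 6 h and 101808 at 4 h, and the reference to 103366 at 6 h and 92060.4 at 4 h. Among the defining markers the differences were -0.01 for Ptprc, -0.07 for Adgre1, -0.00 for Csf1r, -0.17 for Itgam, 0.01 for Lyz2, 0.22 for Spi1 and -0.23 for Tyrobp. Cd68 had no named probe, and the spots of Fcer1g were marked as outliers, so neither gave a value.

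Chemokine genes lay on both sides of zero without a call. Ccl2 and Ccl4, which draw monocytes and other leukocytes, had differences of -0.84 and -0.78. Cxcl2, which draws neutrophils, had 0.57. Of 11 measured chemokine ligands 0 passed the rule, 5 lay above zero and 6 below, and the median was -0.02, a sign that turned in 5 of the other settings. Ccl3, another monocyte-drawing chemokine gene, had 0.11 in the ratio (chosen after its value was seen). Its Cy5 signal alone was 6.08 higher on the 6 h array, and the reference was 5.98 higher there as well. The list of NF-kB feedback inhibitors and subunits had 0 of 21 past the rule. Nfkbid had -0.90 and Nfkbia, the IkBa gene, had -0.46 (-0.75 in Cy5 alone), whereas Birc3 had 0.30. Tnfaip3, the A20 gene, had 0.24 in the ratio, with 1.38 in Cy5 and 1.14 in the reference.

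Other benchmark genes of macrophage activation stayed inside the rule. Ptgs2, the inducible cyclooxygenase gene, had a difference of 0.61, Nos2, the inducible nitric oxide synthase gene, had 0.32, Socs3 had -0.36 and Il10 had -0.13. Il10 was dim, with a processed Cy5 signal of 38.8 at 6 h and 52.1 at 4 h. Il1b, Il6 and Egr1 were not well above background on either array, so no difference is given for them. Of the housekeeping benchmarks, Gapdh had 0.33, with its 2 measured probes at 0.28 and 0.39. Actb had 1 probe, which was marked as an outlier, and gave no value.

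The immediate early genes split. Fos, which encodes a subunit of the transcription factor AP-1, had a processed Cy5 signal of 163 at 6 h and 526 at 4 h, and a difference of -1.04, which was -0.95 when spots marked as outliers were kept. Gadd45g, a growth arrest and DNA damage gene, had 2269 at 6 h and 899 at 4 h and a difference of 1.06. Its relative Gadd45b had 0.81, which was 0.39 in Cy5 alone, and Atf3, a stress-induced repressor of the ATF family, had 0.81. Of 24 measured immediate early genes 1 was higher and 1 lower, 14 lay above zero, and the median was 0.21, against 0.06 in Cy5 alone. Among 22 measured apoptosis regulators Bbc3, the gene of the p53 target PUMA, was the 1 past the rule, with a processed Cy5 signal of 4984 at 6 h, 2299.7 at 4 h and a difference of 1.04. Fas had 0.53 and Pmaip1, the gene of NOXA, had 0.45, while Apaf1 had -0.40. Median centring in place of loess put Gadd45g and Bbc3 at 0.93 each, just short of the rule.

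Mat2a had the lowest difference of all named genes. It encodes the catalytic subunit of methionine adenosyltransferase, which makes S-adenosylmethionine. Its processed Cy5 signal was 3896 at 6 h, against 10374 at 4 h, with 10378 at 6 h and 9579.5 at 4 h in the reference. Both of its probes were lower, at -1.56 and -1.45, and the difference of -1.51 was -1.51 in Cy5 alone. Slc38a2, a transporter of small neutral amino acids, had -1.01 and -0.85 in Cy5 alone. B4galt5, a galactosyltransferase of glycolipid synthesis, had -1.15, which was -0.53 with no filter on dim probes, and Mgat2, which acts on N-glycans in the Golgi, lay just outside the rule. Around them the amino acid and endoplasmic reticulum stress lists had no call. In the ATF4 amino acid response 0 of 22 were past the rule, from -0.85 for Chac1, a glutathione-degrading enzyme (-0.43 in Cy5 alone), to 0.93 for Ddit3, the gene of CHOP. In the unfolded protein response list 0 of 24 were past it, but 18 lay below zero and the median was -0.23. Among these Atf6 had -0.51, Manf had -0.46 and Edem1 had -0.44 (-0.26 in Cy5 alone). The list median kept its sign in all 14 other settings, between -0.34 and -0.19. Ddit3, also on this list, had the largest named value there and ran the other way, at 0.93 (1.14 in Cy5 alone).

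Mir17hg, the host transcript of the miR-17 to miR-92a cluster, had a difference of -1.25 from 1 probe, and of -2.77 from the processed signals. Its processed Cy5 signal was a low 40.5 at 6 h, against 264 at 4 h, while the reference had 559 at 6 h and 534 at 4 h. The array probe reads the host transcript and not the small RNAs cut from it, so no level of a mature miRNA is given. The RefSeq tables of GRCm38.p6 place 11 mature miRNAs of 6 hairpins within 1000 bases of the Mir17hg gene model on chromosome 14, all on the plus strand. Because the host transcript carries these hairpins, 1 mature miRNA of each is shown, with the seed (bases 2 to 8) in capitals.
mmu-miR-17-5p: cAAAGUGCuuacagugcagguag
mmu-miR-20a-5p: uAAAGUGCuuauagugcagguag
mmu-miR-18a-5p: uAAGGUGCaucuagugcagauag
mmu-miR-19a-3p: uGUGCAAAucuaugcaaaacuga
mmu-miR-19b-3p: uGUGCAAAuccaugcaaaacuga
mmu-miR-92a-3p: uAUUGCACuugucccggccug
miR-17-5p (chr14:115043684-115043706) and miR-20a-5p (chr14:115044183-115044205) share the seed AAAGUGC, and miR-19a-3p (chr14:115044048-115044070) and miR-19b-3p (chr14:115044358-115044380) share GUGCAAA. MiR-18a-5p (chr14:115043867-115043889) and miR-92a-3p (chr14:115044476-115044496) each have a seed of their own within the cluster. Myc, the gene of a transcription factor known to activate this cluster, had a difference of -0.38, which was -0.18 in Cy5 alone, and Mycn had -0.41. Of 23 measured genes of the MYC network Mir17hg was the 1 past the rule, and the median was -0.06.

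Some histone genes were higher, and others were not. H1f2, a linker histone gene, had a processed Cy5 signal of 6777 at 6 h, against 2513 at 4 h, with 3526 at 6 h and 3780.1 at 4 h in the reference, and a difference of 1.44. H2aw, an H2A gene, had 1786 at 6 h and 565 at 4 h and a difference of 1.28. H2bc8 and H2bc14, genes of H2B, lay just under the rule at 0.96 and 0.97, and H1f1, another linker histone gene, lay at -0.94. Of the 33 measured genes with a histone symbol, grouped after their values were seen, 2 were higher and 0 lower. Of these 33, 16 lay above zero and 17 below, and the median was -0.00. With the processed signals 4 were higher by the rule and 1 lower. Further members, named after their values were seen, were H2bc1 at 0.92, H2aj at 0.55 and H2bc21 at 0.49, against H2ac11 at -0.70 and H2ac15 at -0.58. H2ac11 had -0.17 in Cy5 alone and 0.53 in the reference, and H2ac15 had -0.75 in Cy5 alone. The higher values thus belonged to several members, and not to the family as a whole. Histone genes of 1 type are near-identical, and probes may read several of them. The lists of the cell cycle had 0 genes past the rule. In DNA replication and S phase 24 of 29 measured genes lay below zero, with a median of -0.12 and Pole, the catalytic subunit of DNA polymerase epsilon, at -0.79 (-0.44 in Cy5 alone). In Cy5 alone 18 of the 29 did, with a median of -0.06. In mitosis and G2/M 20 of 26 lay below zero, with a median of -0.13 and Mki67 at -0.49. Median centring put the median at -0.26 for S phase and at -0.24 for mitosis, where the median of all genes was -0.15.

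The highest differences belonged to genes best known from glands and mucosa. Sycn, the gene of the zymogen granule protein syncollin, had a processed Cy5 signal of 967 at 6 h and 25.7 at 4 h, with 499 at 6 h and 494 at 4 h in the reference, and a difference of 3.07. Mptx1, a mucosal pentraxin gene of the intestine, had 728 at 6 h and 131 at 4 h, with 1415 at 6 h and 2214 at 4 h in the reference. Its difference of 2.50 consisted of 1.93 in Cy5 and -0.57 in Cy3. Adh1, an alcohol dehydrogenase gene, had 766 at 6 h and 53.9 at 4 h and a difference of 2.38. Aqp8, a water channel gene of the gut and glands, had 411 at 6 h and 21.8 at 4 h and a difference of 2.20. The low value of each lay on the 4 h array. These 4 genes rested on 1 probe each, and the Cy5 signals of Sycn, Adh1 and Aqp8 at 4 h were low, where the offset of 50 shrinks a difference: from the scanner's processed signals the differences were as large as 5.22 for Sycn, 3.95 for Adh1 and 4.31 for Aqp8.

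Kallikreins, serine proteases abundant in salivary glands, lay on the higher side, chiefly Klk1 and its copies. Klk1 had a processed Cy5 signal of 1211 at 6 h, against 331 at 4 h, and a difference of 1.68. Klk1b5 had 1.69 and Klk1b4 1.34. All 8 measured kallikrein genes, grouped by symbol after their values were seen, lay above zero, with a median of 0.71 and a lowest value of 0.06 for Klk9, although 7 of the 8 did so in the processed signals, in the deposited ratios and without background correction. In the processed signals and in the deposited ratios the median was 2.09 and 6 of the 8 were higher by the rule, against 3 here. Most were dim, and with signals of at least 200 required, 1 of them had a value. The Klk1 genes are close copies on chromosome 7, so their probes may read one another's transcripts. Outside these copies, Klk8 had 0.16 and Klk9 0.06, both dim. Ly6a, the gene of the surface protein Sca-1, had 485 at 6 h and 106 at 4 h and a difference of 1.82. Its neighbour in the Ly6 family Ly6c1 had 1.30, with its 2 probes apart at 0.59 and 2.01, and Ly6c2 had no named probe. Of 7 measured genes of the Ly6 family 3 were higher, Lypd8 included, and 0 lower, and the median was 0.03. Plaur, the urokinase receptor gene and a distant member, had -0.74, with -0.22 in Cy5 alone and 0.52 in the reference.

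Saa1, an acute phase serum amyloid gene, had a processed Cy5 signal of 2006 at 6 h, against 522 at 4 h, and a difference of 1.91. It was the 1 past the rule among 6 measured acute phase genes; Saa3, the form known from macrophages, had 0.06 and Lcn2 had -0.16. The tetraspanin gene Tspan1 had 1.41 and Anxa8, a gene of a calcium-dependent phospholipid-binding annexin, had 1.24, which was 0.83 with no filter on dim probes. The calcium-binding protein genes S100a14 and S100a16 had 1.17 and 1.09, and Sult1a1, a phenol sulfotransferase gene, had 1.04. These last 3 genes, and Gm8801 at -1.03, were named after their values were seen.

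Alpha-defensins, antimicrobial peptides of Paneth cells in the small intestine, lay on the lower side. Defa38 had a processed Cy5 signal of 1355 at 6 h, against 3389 at 4 h, with 3884 at 6 h and 3255 at 4 h in the reference, and a difference of -1.40. Defa2 and Defa42 had -1.21 each, and Defa29 had -1.09. All 11 measured alpha-defensin genes, grouped in the same way, lay below zero in the ratio, with a median of -0.72, and 10 of them in Cy5 alone, with Defa21 the exception. They are near-identical copies on chromosome 8, and their probes cannot be taken as separate measurements. Reg3g, a gene of a lectin that binds Gram-positive bacteria, had -0.98, with -0.63 in Cy5 alone (chosen after its value was seen). In the Paneth cell and Reg list 4 of 15 measured genes were lower and 1, Mptx1, was higher, with a median of -0.61. That median was the value of Ang4, which was 1.79 higher in Cy5 and 2.41 higher in the reference (chosen after its value was seen).

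Of the 35 genes past the rule, 6 higher and 4 lower were on marker lists of cell types other than macrophages (intestine, gland, muscle, stroma or epithelium). Of all 10504 measured genes, 10431 stood on none of these lists. The lists were chosen with earlier results of these data known, so these counts are no separate support. The processed Cy5 signals of 7 measured exocrine gland markers (of 29 listed) summed to 3204 at 6 h and 742 at 4 h, with 1817 at 6 h and 2184 at 4 h in the reference. Those of 15 measured Paneth cell and Reg markers (of 26) summed to 15787 at 6 h and 19224 at 4 h, with 46333 at 6 h and 27610 at 4 h in the reference. Without Defa21 these sums were 10885 at 6 h and 18436 at 4 h in Cy5, and 29297 at 6 h and 26634 at 4 h in the reference. They still hold Ang4, which was brighter at 6 h in both channels. Its processed signals were 836 at 6 h and 176 at 4 h in Cy5, and 2324 at 6 h and 356 at 4 h in the reference. Enterocyte and goblet cell markers, 31 measured of 35, summed to 29319 at 6 h and 31242 at 4 h, with 50823 at 6 h and 57097 at 4 h in the reference. Smooth muscle and fibroblast markers, 12 of 21, summed to 6066 at 6 h and 7589 at 4 h in Cy5, and to 6621 at 6 h and 7565 at 4 h in the reference. Epithelial and endothelial markers, 8 of 16, summed to 6722 at 6 h and 6378 at 4 h in Cy5, and to 8355 at 6 h and 9811 at 4 h in the reference. The pancreatic protease genes Prss1, Prss2 and Cpa1 were not well above background. Cela1 and Ctrb1, also pancreatic protease genes, were measured, at 0.55 (0.74 in Cy5 alone) and -0.10 (named after their values were seen). The lists thus ran in different directions, and their part in the result was not tested. Without the genes on these lists 14 genes were higher and 11 lower of 10431. Those left still include Aqp8, Klk1b4, Adh1 and Defa42, which stand on none of the lists.

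The values at 1 h, read from the array of the same line after 1 h, place the shift in time. The 4 h array enters the difference, so the path is given as values and supports nothing further. Of the 20 higher genes, 18 had a log2 ratio at 4 h below that at 1 h, and 18 had a ratio at 6 h above that at 1 h. Among all 10324 genes also measured at 1 h these shares were 62.1% and 38.1%. Sycn had 0.04, -2.29 and 0.78 at 1, 4 and 6 h, and Mptx1 had 0.11, -3.39 and -0.89. H1f2 differed from most of the group, with -1.09, -0.59 and 0.85 in that order. Of the 15 lower genes, 15 had a ratio at 6 h below that at 1 h, and 7 had a ratio at 4 h below that at 1 h, against 61.5% and 62.1% of all genes. Tnf had -0.06, 0.86 and -0.33, and Tlr2 had -0.20, 0.23 and -0.80, so both were highest at 4 h. Mat2a had 0.55, 0.42 and -1.09, and Mir17hg had 0.34, -0.67 and -1.93, so both were lowest at 6 h.

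**Figure D3:**
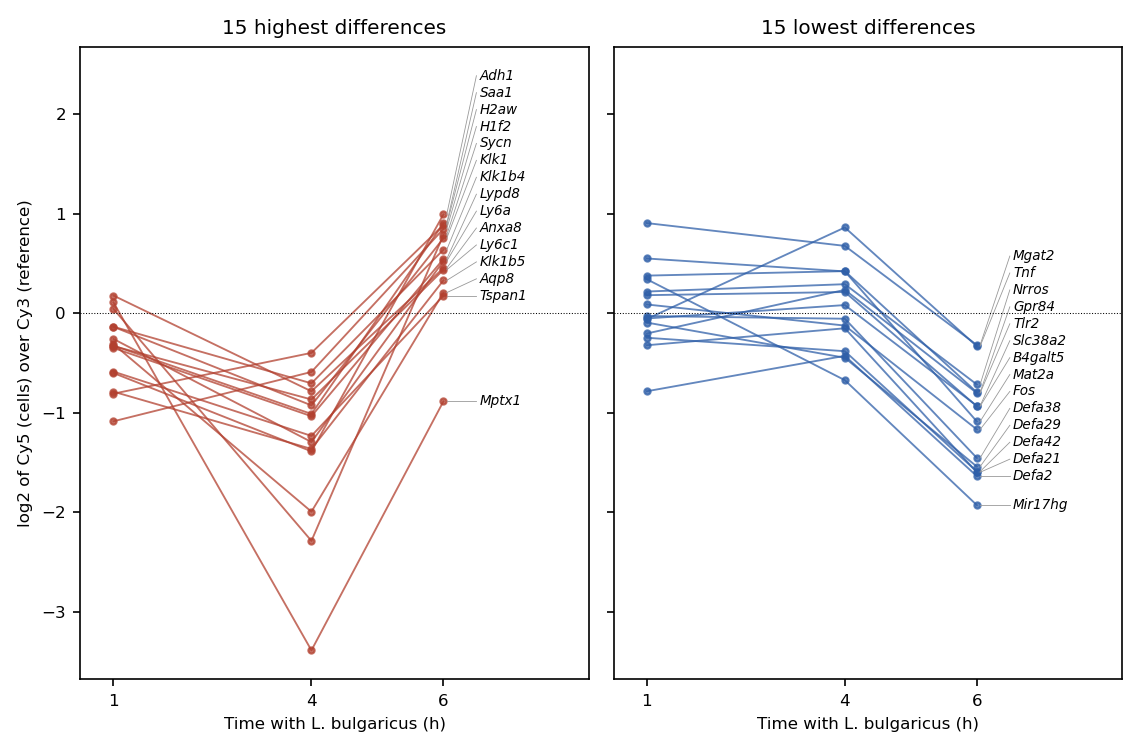
Log2 of Cy5 over Cy3 at 1, 4 and 6 h with L. bulgaricus for the 15 genes with the highest (left, red) and the 15 with the lowest (right, blue) difference between 6 h and 4 h. Each line is 1 gene with 1 array per time; most red lines dip at 4 h, and Mptx1 is the 1 red line that stays below zero at 6 h.

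Across the broader gene programmes the shift was small. Of 36 pathway lists 28 had no gene past the rule, and 32 had a median within 0.15 of zero. Ribosomal protein genes lay close together: 34 of 35 measured were above zero, the median was 0.25, and Rps15, at -0.65, was the exception. Rps15 had 0.28 in Cy5 alone and 0.93 in the reference, so only its ratio was lower. In Cy5 alone 24 of the 35 lay above zero, with a median of 0.13, and with median centring 32 did, with a median of 0.14. Among targets of the antioxidant factor NRF2, 20 of 24 lay above zero with a median of 0.13, led by Hmox1, the haem oxygenase gene, at 0.52 and Gsr, the glutathione reductase gene, at 0.44. With median centring 13 of the 24 lay above zero and the median was 0.03. For autophagy genes 18 of 24 lay above zero, the median was 0.12 and Atg9a had 0.58; with median centring the list's median was -0.03. Median centring lowered the median of all genes to -0.15, so both lists stayed above it.

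Genes of lipid handling included 2 of the larger positive values inside the rule, Fabp4, a fatty acid carrier, at 0.66 and Apoe, the apolipoprotein E gene, at 0.57, in a list with a median of -0.10. Scd2, a fatty acid desaturase gene, had -0.55 and Sqle, of cholesterol synthesis, had -0.43. Among 34 measured interferon-stimulated genes 0 were past the rule, with a median of -0.03 and Trim25 at -0.62. Among antigen presentation and costimulation genes Cd274, the gene of PD-L1, had 0.66 (0.36 in Cy5 alone) and H2-Ab1, a class II gene, had -0.58. The 2 probes of H2-Ab1 lay apart, at -1.05 and -0.11. The class II genes H2-Aa and H2-Eb1 had 0.35 (0.62 in Cy5 alone) and -0.06, the latter named after its value was seen. Of the RNA decay factors, Zfp36l2 had -0.70 and Tob2 had -0.60, which was -0.33 in Cy5 alone. None of these lists had a gene past the rule.

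**Figure D4:**
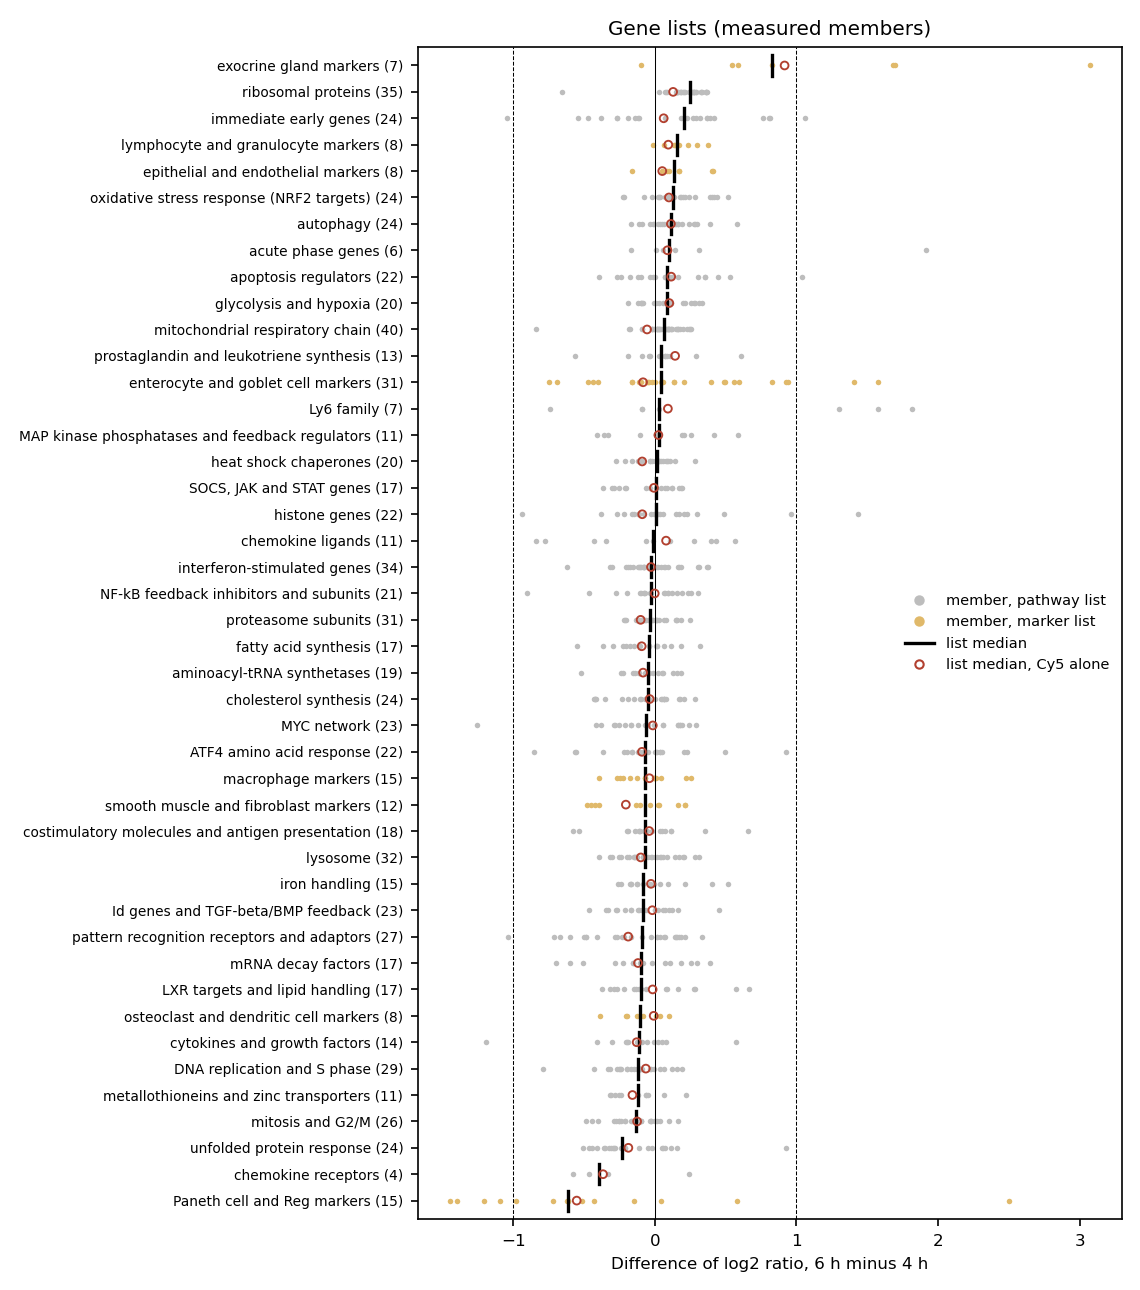
Differences of the log2 ratio (6 h minus 4 h) for the measured members of 44 gene lists, with the number measured in brackets. Points are genes (grey in the 36 pathway lists, yellow in the 8 marker lists), black bars the list medians and open red circles the medians in Cy5 alone; most medians lie near zero, with exocrine gland markers at 0.83 and Paneth cell and Reg markers at -0.61 at the ends.

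Some genes were well above background in Cy5 on 1 array only, and for these the difference is a bound. The bright array's normalized Cy5 value was divided by a floor for the dim array, namely the probe's own value there or, where this was larger, that array's faintest value clear of background; the result is open to dye bias. By this measure 14 of 263 such genes (5.32%) were at least 2-fold higher at 6 h and 5 of 495 (1.01%) at least 2-fold lower. On the dim array Cy3 was at least 1 lower as well for 8 of the 14 and for 5 of the 5. The largest bounds of genes with a proper symbol were of that kind: Gfpt1, of hexosamine synthesis, was at least 14.8-fold higher, Trmt11, a tRNA methyltransferase gene, at least 8.22-fold and Tmlhe, of carnitine synthesis, at least 5.51-fold, while Cy3 was 3.85, 3.01 and 2.59 higher at 6 h for these genes. Likewise Pi4k2b, a phosphatidylinositol kinase gene, was at least 13.4-fold lower, Sec61a1, of the protein-conducting channel of the endoplasmic reticulum, at least 8.86-fold and Nelfa, of a complex that pauses RNA polymerase II, at least 3.59-fold, with Cy3 lower too. The clone-named gene E130311K13Rik, at least 6.36-fold lower with Cy3 at -3.18, stood between Sec61a1 and Nelfa. Where the reference was not dimmer in this way, the largest bound was that of Wfdc2, a gene of a secreted epithelial protease inhibitor, at least 3.20-fold higher with Cy3 0.24 apart (chosen after its value was seen).

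The start regions of genes past the rule were searched for short motifs in the 250 bases before the gene start, on both strands, in RefSeq promoters of GRCm38.p6. Such a window was found for 8465 measured genes, among them 18 of the 20 higher and 13 of the 15 lower. The TATA box TATAAA was present in 7.81% of all windows, in 3 of the 18 and in 7 of the 13. Of those 7, 4 belonged to alpha-defensins, which are copies of one another, and the others to Mat2a, Tnf and Fos. The CCAAT box CCAAT was present in 41.0% of all windows, in 10 of the 18 and in 3 of the 13. The AP-1 site TGACTCA (4.22% of all windows), the cyclic AMP response element TGACGTCA (3.15%), the composite site TGATGNAAT (0.437%) and the interferon response form (TTTC, any 2 bases, TTTC; 3.17%) were in 0 windows of either group, and the kappaB form (GGG, any 2 bases, TTTCC; 1.71%) was in that of Bbc3. A match says only that these letters occur. The 3 lower genes with a TATA box outside the defensins, and the 2 histone genes that were higher, are shown 5′ to 3′ on the gene's strand, with matches in capitals; ATTGG is CCAAT on the other strand.
Mat2a, chr6:72439557-72439806, minus strand: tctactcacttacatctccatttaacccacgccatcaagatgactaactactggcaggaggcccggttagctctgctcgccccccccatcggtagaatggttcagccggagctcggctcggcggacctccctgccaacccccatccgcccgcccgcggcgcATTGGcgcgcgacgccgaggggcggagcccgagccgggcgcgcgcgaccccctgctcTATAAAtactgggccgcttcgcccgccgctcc
Tnf, chr17:35202008-35202257, minus strand: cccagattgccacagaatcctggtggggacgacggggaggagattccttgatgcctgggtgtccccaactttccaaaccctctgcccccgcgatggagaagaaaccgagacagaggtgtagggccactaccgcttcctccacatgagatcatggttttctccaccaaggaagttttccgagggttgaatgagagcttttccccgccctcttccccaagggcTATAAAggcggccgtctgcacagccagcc
Fos, chr12:85473640-85473889, plus strand: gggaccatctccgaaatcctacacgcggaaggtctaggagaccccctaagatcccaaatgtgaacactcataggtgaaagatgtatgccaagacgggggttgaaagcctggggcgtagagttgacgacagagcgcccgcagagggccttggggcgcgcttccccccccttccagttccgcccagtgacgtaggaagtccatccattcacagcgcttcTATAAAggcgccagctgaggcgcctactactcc
H1f2, chr13:23738557-23738806, plus strand: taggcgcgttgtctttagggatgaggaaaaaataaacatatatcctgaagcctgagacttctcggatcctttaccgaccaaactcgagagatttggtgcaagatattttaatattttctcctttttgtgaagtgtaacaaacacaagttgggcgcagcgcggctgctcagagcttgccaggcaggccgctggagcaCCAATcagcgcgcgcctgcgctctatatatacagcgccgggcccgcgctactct
H2aw, chr11:58954435-58954684, plus strand: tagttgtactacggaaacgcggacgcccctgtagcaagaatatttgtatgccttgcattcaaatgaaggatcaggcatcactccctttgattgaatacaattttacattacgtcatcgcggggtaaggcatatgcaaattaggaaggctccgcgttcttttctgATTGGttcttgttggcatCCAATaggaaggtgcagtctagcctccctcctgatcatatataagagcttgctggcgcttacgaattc
In the windows of Mat2a, Tnf and Fos TATAAA began 32, 29 and 33 bases before the gene start. The CCAAT boxes of H1f2 and H2aw began 54 and 68 bases before it, and H2aw had a second, on the other strand, at 86.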

How the data were processed

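The 6 h and 4 h arrays were used, with the 1 h array for values over time; the untreated array was not used here. Per the submitters' processing notes, Agilent Feature Extraction 10.5.1.1 read the images. The deposited scanner files give intensity values per spot (median brightness of spot and background) and processed signals, background-subtracted and dye-normalized; the deposited series table holds the log10 ratio of Cy5 over Cy3. From the deposited intensities, log2 ratios were computed with limma 3.58.1 under R 4.3.3 by normexp (offset 50) and loess within each array, with control and outlier spots at weight 0 (outliers 1.55% of spots at 6 h, 1.69% at 4 h). Spots of a probe, then measured probes of a gene, were averaged. Of 39429 probes, 27655 were named through accessions in RefSeq GRCm38.p6. The array was annotated on an older build, so coordinates are given only with printed miRNA and promoter sequences, from RefSeq GRCm38.p6.

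A difference of 1 or more counted, with no p-value, since each time had 1 array. Single-channel values came from loess and Aquantile. Named genes were the 15 highest and 15 lowest with a proper symbol and probes of 1 sign, in each direction the 3 largest bounds of such genes, at most 4 members of a pathway list, and benchmark genes; others are marked where they stand. The members and lists were chosen with earlier results of these data known. Alternatives changed the background correction, normalization, source of values, filters, probe choice and rule of size. Steps were tested on simulated data. Tables used pandas 2.3.3 and numpy 2.4.6 under Python 3.11.15; plots used matplotlib 3.10.9.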

Additional observations from a re-analysis of the deposited data

How the results depend on the processing

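The counts of 20 higher and 15 lower genes were 78 and 73 with the scanner's processed signals and with the deposited log ratios, 35 and 23 with an offset of 16, 18 and 29 with median centring, and 118 and 45 in Cy5 alone. With processed signals of at least 200 they were 9 and 13. At a rule of 1.5-fold they were 72 and 134, and at a log2 difference of 1.5 they were 9 and 1. With bounds added they were 34 and 20, but these bounds compare Cy5 alone. For 8 of the 14 added higher genes and 5 of the 5 added lower genes the reference moved the same way by at least 1. The share of calls that were higher was 57.1%, against 38.3% with median centring, 40.9% with signals of at least 200 and 72.4% in Cy5 alone; median centring moved the median of all genes to -0.15. The other settings kept both counts within 1.5 times. Defa21 reversed, to 2.53, in Cy5 alone. Leaving out marker-list genes (14 and 11) was chosen after seeing the data. No paired analysis was possible because each time had 1 array. Low signal limits the higher genes, many of which were dim at 4 h, and 1 array per time limits all values.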

Other observations

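Several gene groups not described above held no gene past the rule of size. Their counts by sign stand beside 46.4% above zero and 53.6% below over all measured genes. Among 40 measured genes of the mitochondrial respiratory chain 30 lay above zero with a median of 0.07, which was -0.05 in Cy5 alone, and Ndufb10, a complex I gene, had -0.84, with -0.04 in Cy5 alone. Of 31 measured proteasome subunit genes 20 lay below zero, with a median of -0.04 and a highest value of 0.25 for Psmc6. Of 20 measured genes of glycolysis and hypoxia 13 lay above zero, with a median of 0.08 and Pfkfb3, which makes an activator of glycolysis, at 0.31 in the ratio and at 0.00 in Cy5 alone; median centring put that median at -0.05. Of 32 measured lysosome genes 20 lay below zero, with a median of -0.07. The lysosomal protease gene Ctsh had -0.39 in the ratio, with 0.30 in Cy5 alone and 0.69 in the reference, and Gla, the alpha-galactosidase gene, had 0.32, with 0.12 in Cy5 alone.

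Dusp1, a MAP kinase phosphatase gene, had 0.58 and Dusp2 had -0.41 (-0.24 in Cy5 alone), in a list of 11 measured genes with a median of 0.03, which was -0.11 with median centring. Bmpr1a, a BMP receptor gene, had -0.46, with -0.70 in Cy5 alone, and Id1, a target of BMP signalling, had 0.45, with -0.05 in Cy5 alone. Ptgir, the prostacyclin receptor gene, had -0.56. Of 16 listed chemokine and chemoattractant receptor genes 4 were measured. Cxcr3 had -0.57, C3ar1, which answers complement C3a, had -0.46, Cx3cr1, the fractalkine receptor gene, had -0.33, and Ccrl2 had 0.24. Their median of -0.40, over these 4 genes, lay farther from zero than that of any other of the 36 pathway lists; it was -0.37 in Cy5 alone and 0.05 with no filter on dim probes. Probes with no gene name numbered 2629 among those measured, and 11 of them (0.418%) were higher and 7 (0.266%) lower, against 0.220% and 0.176% of all 15883 measured probes.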
